A study of Homo sapiens with 8 samples.

Results

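The silencing of LKB1 in glioblastoma cells was followed in 9 neuron-related genes, out of the 18787 gene symbols in the deposited table. Of the 9, 7 were listed as neuronal genes: CEND1, FAIM2, SLC4A8, RAB39B, PIANP, LMTK3 and NEURL1B. The other 2 are REST, a repressor of neuronal genes, and its corepressor RCOR1. The genes were taken by symbol from a list drawn up with results of these data known. The neuronal genes were chosen by their deposited values, for higher levels after knockdown in T98 cells or for an effect that differed between the lines, so all values that involve that contrast, or the difference between the lines, are given for them as a description without a p-value. What led to the listing of REST and RCOR1 is not stated; they were treated as chosen for their role, and their p-values hold only if so.

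The groups were T98 cells with LKB1 siRNA, T98 cells with control siRNA, U87 cells with LKB1 siRNA and U87 cells with control siRNA, with 2 libraries each and 8 in all. T98 and U87 are established human glioblastoma lines and RNA was taken 72 h after transfection of the siRNA with a lipid reagent. LKB1 is the serine/threonine kinase encoded by STK11. The labels do not say whether duplicates were separate transfections, so the p-values measure the spread between these libraries, which may be technical. Per the column names, each group had a library on sequencing lane 2 and another on lane 4 (T98) or lane 5 (U87). Values below are given in that order, lane 2 first.

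REST is a zinc finger protein that binds a DNA element called RE1 in many neuronal genes and keeps them silent outside neurons. It recruits the scaffold RCOR1 (CoREST), which carries the histone demethylase KDM1A and the deacetylases HDAC1 and HDAC2, and also SIN3 complexes. In neural precursors the REST protein is degraded through the ubiquitin ligase subunit BTRC, and neuronal genes become active as the cells leave the cell cycle.

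The libraries held 25234334 to 38031734 reads, recovered from the deposited values as described under processing. A value is a read count that the authors scaled to a common library size, and log2 fold changes are of the value plus 1. STK11, the targeted gene, had 339.9 and 588 in T98 LKB1 siRNA against 1999 and 2041 in T98 control siRNA, and 361 and 385 in U87 LKB1 siRNA against 2445 and 2041 in U87 control siRNA. Its level was thus lower in every LKB1 siRNA library than in every control library. In limma-trend it had a log2 fold change of -2.17 in T98 (adjusted p = 0.0824, or 0.00254 with a lane term) and -2.58 in U87 (adjusted p = 0.0466, or 0.00195). Lane differences within a group were large for several neuronal genes (up to 7.53-fold, for PIANP in the T98 controls, where the median gene differed 1.27-fold), so the fit with a lane term is given beside or, for genes of the lists below, in place of the fit without one. In the fit without a lane term, no gene of those lists passed for LKB1 against control siRNA in either line. In bulk RNA fewer expressing cells and less RNA per cell cannot be told apart.

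CEND1 (NM_016564, chr11:787110-790126 in hg19, minus strand) is a membrane protein of neurons that promotes cell cycle exit of neuronal precursors. Its value was 1198 and 1129 in T98 LKB1 siRNA, against 26.7 and 44.7 in T98 control siRNA. In U87 it was 2691 and 2011 with LKB1 siRNA, against 1090.5 and 682 with control siRNA. The groups of each line did not overlap, and the silenced T98 cells reached a mean of 131% of the U87 controls, where the T98 controls stood at 4.03%. Among the 9 genes, CEND1 ranked 4 by value per kilobase of transcript in the T98 controls (21.7 ± 7.70, SD, n = 2) and 1 in T98 LKB1 siRNA (706 ± 29.4, n = 2), in U87 LKB1 siRNA and in the U87 controls. The promoter of CEND1 is shown because CEND1 had the largest log2 fold change of the 9 in T98 cells, from 250 bases before to 50 bases after the RefSeq start (GRCh38.p14, chr11:790041-790340, minus strand), with its closest match to the RE1 motif in capitals.

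CEND1: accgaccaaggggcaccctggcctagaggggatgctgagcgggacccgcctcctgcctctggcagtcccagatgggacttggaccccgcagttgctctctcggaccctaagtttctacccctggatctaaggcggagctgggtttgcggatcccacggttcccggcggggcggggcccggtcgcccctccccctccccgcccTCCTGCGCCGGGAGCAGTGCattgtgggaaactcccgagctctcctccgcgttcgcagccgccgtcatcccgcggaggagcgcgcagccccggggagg

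The RE1 motif searched, on both strands, was the half-site TTCAGCACC, any 2 bases, then the half-site GGACAGCGC, which gives 18 fixed letters. RefSeq promoters of the same 300 bases were at hand for 7 of the 9 genes and for 28 of 40 known REST target genes. The windows below are written in the motif's direction with the letters that equal the motif in capitals. They set the best match of CEND1, PIANP and REST beside those of established REST targets.
GRIA2: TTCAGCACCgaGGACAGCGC
SYN1: TTCAGCACCgcGGACAGtGC
VGF: TTCAGCACgctGGACAGCGC
CEND1: TcCtGCgCCggGagCAGtGC
PIANP: TcCctCgCCcgGGACAagGC
REST: gTCAGCcCCggGGcCcGgGC

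GRIA2, a glutamate receptor subunit, held the motif with no mismatch (chr4:157220389-157220408), while SYN1, a synaptic vesicle protein (chrX:47620071-47620090), and VGF, a neuropeptide precursor (chr7:101165559-101165578), each had 1 mismatch. Of all 35116 promoters, 0.658% held a match with at most 4 mismatches, as did 5 of the 28 target genes with a promoter. None of the 7 members with a promoter reached that. CEND1 (chr11:790119-790138) and PIANP (chr12:6700499-6700518) had 6 mismatches, which 22.7% of all promoters equalled or bettered, and REST had 5 (chr4:56908702-56908721; 4.35% of promoters). The best windows of SLC4A8, NEURL1B and RCOR1 had 7 mismatches and that of LMTK3 had 8. RE1 elements also lie outside such windows, and these counts speak only of the letters in them.

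FAIM2 and PIANP are membrane proteins of neurons, and their T98 libraries differed widely between lanes. FAIM2 (NM_012306, chr12:50260679-50297760, minus strand), which blocks cell death through the Fas receptor, had 127 and 445 in T98 LKB1 siRNA, against 10.8 and 41.9 in T98 control siRNA. In U87 it had 3118 and 1885 with LKB1 siRNA, against 1353 and 656 with control siRNA. The lane 4 library was over 3 times the lane 2 library in both T98 groups, so the log2 fold change was nearly the same within lane 2 (3.44) and lane 4 (3.38). PIANP (NM_153685, chr12:6802957-6810009, minus strand), a ligand of the immune receptor PILRA, had 170.3 and 591 in T98 LKB1 siRNA, against 10.9 and 88.5 in T98 control siRNA. Its U87 values were 1012 and 628 with LKB1 siRNA, against 361 and 225 with control siRNA. The silenced libraries of both genes lay above both controls of their line, and PIANP differed more within lane 2 of T98 (3.85) than within lane 4 (2.73).

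SLC4A8 and RAB39B act in transport. SLC4A8 (NM_001039960, chr12:51785101-51909547, plus strand), a sodium-driven chloride and bicarbonate exchanger that regulates pH in neurons, had 181 and 100.4 in T98 LKB1 siRNA, against 18.0 and 8.48 in T98 control siRNA. In U87 it had 509 and 621 with LKB1 siRNA, against 367 and 453 with control siRNA. The T98 fold was alike in the lanes (log2 3.26 and 3.42), and that in U87 was small in both (0.47 and 0.46). RAB39B (NM_171998, chrX:154487526-154493852, minus strand), a small GTPase of vesicle traffic in neurons, had 66.1 and 63.3 in T98 LKB1 siRNA, against 2.19 and 6.69 in T98 control siRNA. Only 2 and 7 reads lie behind these T98 control values, and the ratio within lane 2, 30.8 per total reads, has a 95% counting interval of 8.14 to 260.0 (exact Clopper-Pearson, counting error only). With 708 and 728 in U87 LKB1 siRNA, against 292 and 380.0 in U87 control siRNA, RAB39B was far above the T98 level in every U87 library.

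LMTK3 and NEURL1B took different courses. LMTK3 (NM_001080434, chr19:48988528-49016446, minus strand), a membrane-anchored kinase of the brain, was the scarcest of the 9 per kilobase in all 4 groups. It had 8.36 and 46.8 in T98 LKB1 siRNA, against 1.09 and 2.86 in T98 control siRNA, which rest on 7 and 50 reads against 1 and 3. The ratio per total reads was 7.42 in lane 2 (95% counting interval 0.954 to 335) and 16.3 in lane 4 (5.28 to 81.9), so lane 2 alone does not separate the groups beyond counting error. In U87, LMTK3 had 135 and 87.05 with LKB1 siRNA, against 44.2 and 20.9 with control siRNA.

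NEURL1B (NM_001142651, chr5:172068276-172118533, plus strand) is a ubiquitin ligase that acts on Notch ligands. It had 358 and 1198 in T98 LKB1 siRNA, against 235 and 548 in T98 control siRNA, and these groups overlapped. In U87 it had 729.7 and 411 with LKB1 siRNA, against 2185 and 1171 with control siRNA, with no overlap and in the other direction (20.2% of all genes were lower without overlap there). Within lanes the log2 fold changes were 0.61 and 1.13 in T98 and -1.58 and -1.51 in U87. Without the lane 4 library of T98 LKB1 siRNA, the fit without a lane term gave -0.0013 for NEURL1B in T98. That fit sets the lane 2 silenced library against controls of both lanes, where lane 2 alone gave 0.61.

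**Figure D1:**
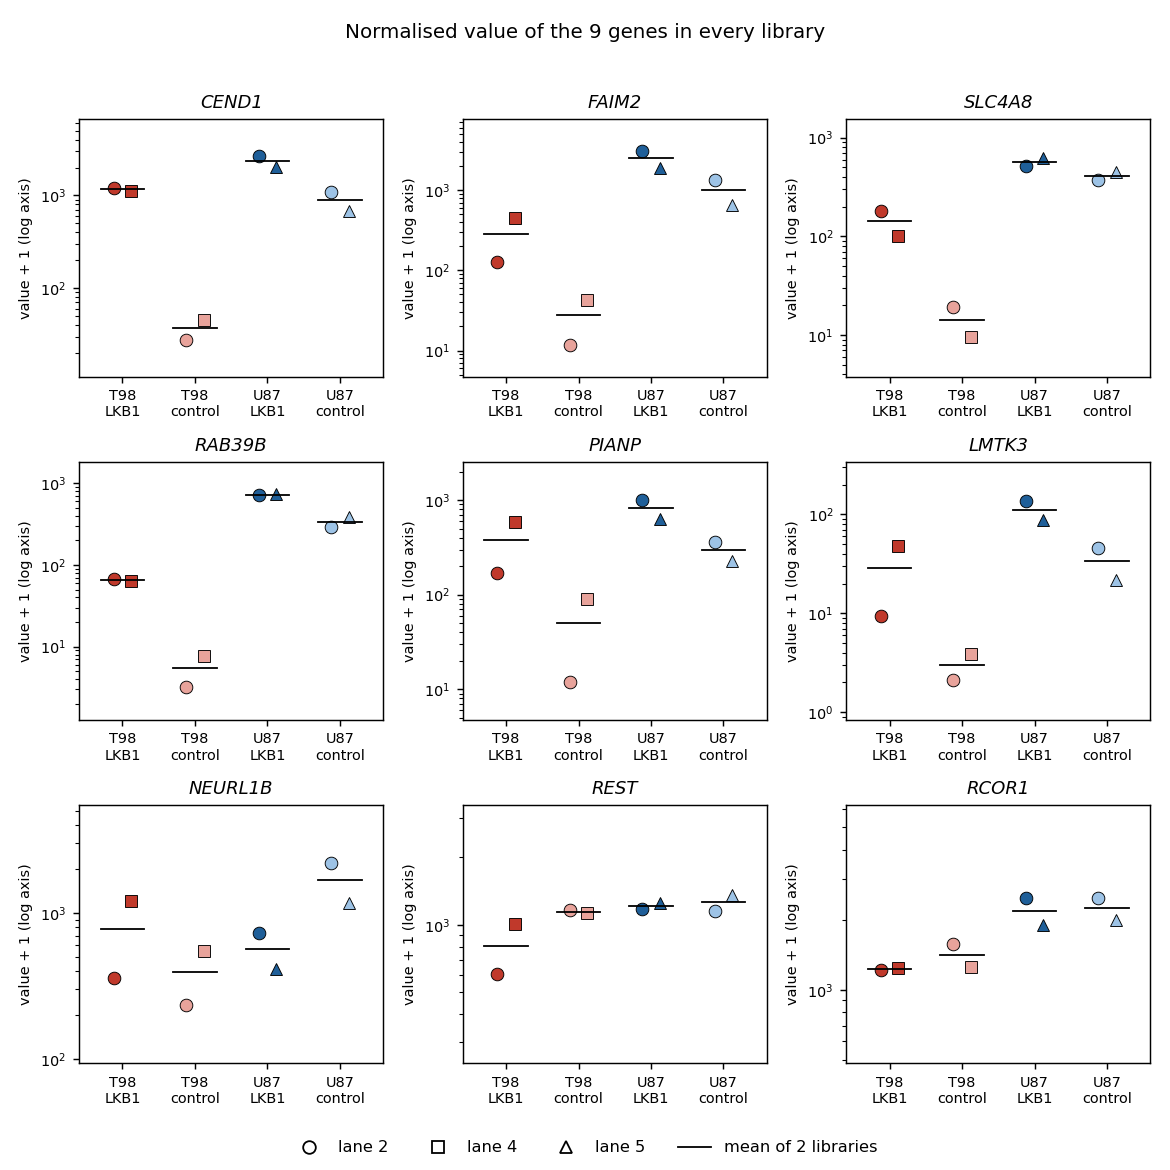
Value plus 1 on a log axis for the 9 genes, with 1 panel per gene, the groups T98 LKB1, T98 control, U87 LKB1 and U87 control from left to right, and the marker shape giving the sequencing lane; lines are means of 2 libraries. CEND1 has 1198 and 1129 in T98 LKB1 siRNA against 26.7 and 44.7 in T98 control siRNA, while REST lies between 605 and 1361 in all 8 libraries.

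In T98 the 7 neuronal genes were all higher with LKB1 siRNA in both lanes, and 6 of them did so without overlap of the groups, as 20.5% of all 14282 genes tested did. The listing used this contrast, so the counts describe the choice. The log2 fold changes (LKB1 over control siRNA, both lanes) were 5.03 (SE 0.35) for CEND1, 3.73 (SE 0.47) for RAB39B, 3.41 (SE 0.78) for FAIM2, 3.34 (SE 0.46) for SLC4A8, 3.29 (SE 0.95) for PIANP, 2.89 (SE 0.86) for LMTK3 and 0.87 (SE 0.66) for NEURL1B. With a term for the lane, the same estimates had SEs of 0.21 for CEND1, 0.33 for RAB39B, 0.17 for FAIM2, 0.20 for SLC4A8, 0.27 for PIANP, 0.43 for LMTK3 and 0.17 for NEURL1B.

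The U87 libraries share none with the T98 contrast, so 5 of the genes were tested there: CEND1, FAIM2, SLC4A8, RAB39B and PIANP. These 5 were treated as listed for their T98 rise alone, and their U87 p-values hold only if so. The spread in these fits is pooled over all 8 libraries. The T98 libraries that entered the choice thus also enter these p-values, which are not fully independent of it. All 5 had higher values with LKB1 siRNA in both lanes and without overlap (17.6% of all genes tested did). None passed in limma-trend without a lane term, which called 0.056% of all genes in either direction and 0.028% higher. The log2 fold change was 1.43 for CEND1 (SE 0.35, adjusted p = 0.161), and the others had smaller ratios to their SE: PIANP 1.48 (SE 0.95, adjusted p = 0.839), FAIM2 1.36 (SE 0.78, adjusted p = 0.782), RAB39B 1.10 (SE 0.47, adjusted p = 0.563) and SLC4A8 0.46 (SE 0.46, adjusted p = 0.961).

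With a lane term, CEND1, FAIM2 and PIANP rose in U87, 3 of the 5, where limma-trend with that term called 5.29% of all genes higher. CEND1 had an SE of 0.21 and an adjusted p of 0.00684, FAIM2 an SE of 0.17 and an adjusted p of 0.0040, and PIANP an SE of 0.27 and an adjusted p of 0.0147. RAB39B (adjusted p = 0.076) and SLC4A8 (adjusted p = 0.178) did not pass. The 3 calls were lost without any 1 of the 4 U87 libraries, with adjusted p from 0.190 to 0.358 for CEND1, from 0.151 to 0.353 for FAIM2 and from 0.222 to 0.440 for PIANP, in fits where the spread comes from T98 alone. They held without any 1 of the 4 T98 libraries.

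As a description, LMTK3 had a log2 fold change of 1.80 (SE 0.86) in U87 and NEURL1B one of -1.54 (SE 0.66). The T98 value exceeded the U87 value for all 7 neuronal genes, by 3.60 for CEND1, 2.87 for SLC4A8, 2.63 for RAB39B, 2.41 for NEURL1B, 2.04 for FAIM2, 1.81 for PIANP and 1.10 for LMTK3 on the log2 scale. Without the lane 4 library of T98 LKB1 siRNA, the fit without a lane term gave a difference of -0.0773 for LMTK3. That fit sets the lane 2 silenced library against T98 controls of both lanes. Within lane 2, LMTK3 had 2.16 in T98 and 1.59 in U87.

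**Figure D2:**
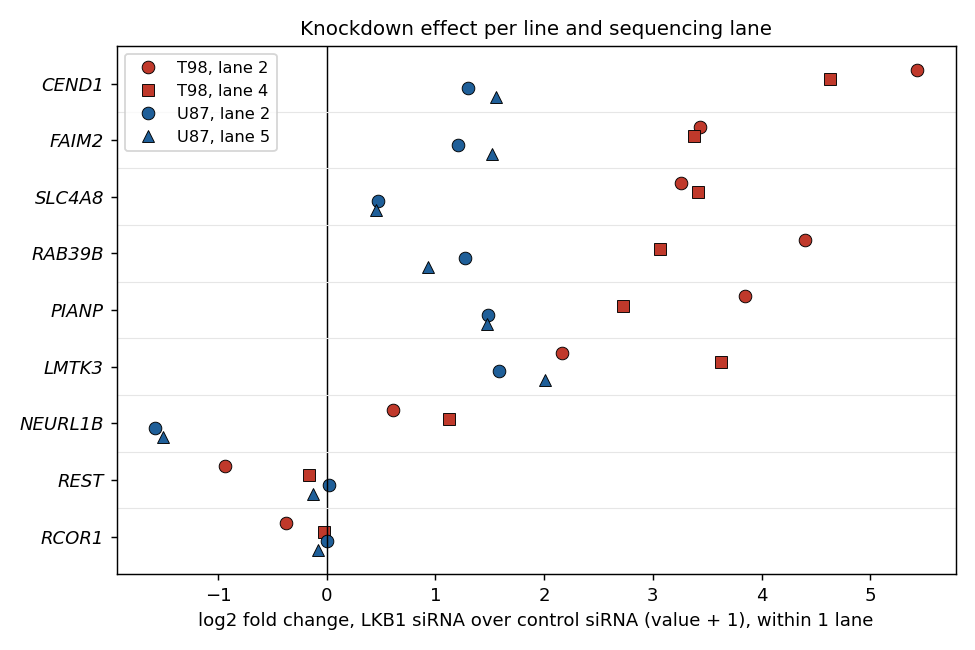
Log2 fold change of LKB1 over control siRNA within 1 lane, with T98 in red and U87 in blue, and the marker shape giving the lane. CEND1 lies at 5.43 and 4.63 in T98 and at 1.30 and 1.56 in U87, and NEURL1B lies to the right of 0 in T98 and to the left of it in U87.

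The control libraries of the 2 lines are compared here as a description. The T98 controls entered the choice of the neuronal genes, and a low value there makes for a larger rise. All 7 neuronal genes were lower in the T98 controls than in the U87 controls, by log2 values of -6.08 for RAB39B, -5.39 for FAIM2, -4.93 for SLC4A8, -4.60 for CEND1, -3.47 for LMTK3, -3.13 for PIANP and -2.15 for NEURL1B. Between the lane 2 controls alone the 7 genes ranged from -6.84 (FAIM2) to -3.21 (NEURL1B). Over all genes tested, the median for T98 over U87 controls was -0.01, and limma-trend called 19.5% lower and 18.3% higher. After silencing, the T98 mean was at 131% of the U87 control mean for CEND1 and 129.9% for PIANP, at 84.6% for LMTK3, and at 46.4% for NEURL1B, 34.3% for SLC4A8, 28.5% for FAIM2 and 19.2% for RAB39B. The lines share no lane other than lane 2, so line and lane can be told apart there only.

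REST RNA did not pass the test in either line. REST (NM_005612, chr4:57774042-57802010, plus strand) had 605 and 1003 in T98 LKB1 siRNA, against 1161 and 1123 in T98 control siRNA. In U87 it had 1169 and 1246 with LKB1 siRNA, against 1149.8 and 1361 with control siRNA. The T98 groups did not overlap, with the lane 2 library of T98 LKB1 siRNA lowest of the 8, and the U87 groups overlapped. In T98, 20.5% of all genes were lower without overlap. Its log2 fold change in T98 was -0.55 (SE 0.26, adjusted p = 0.521; with a lane term SE 0.19, adjusted p = 0.0877), made up of -0.94 in lane 2 and -0.16 in lane 4. In U87 it was -0.05 (SE 0.26, adjusted p = 0.999), and the difference between the lines was -0.50 (adjusted p = 1.0).

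The T98 value of REST depended on the lane 4 libraries. The lane-term fit gave -0.94 without the lane 4 library of T98 control siRNA, and the same without that of T98 LKB1 siRNA. It so read lane 2 alone. Such a fit leaves no spread within T98 and takes it from the U87 libraries, so no p-value is given.

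RCOR1 (NM_015156, chr14:103058996-103196913, plus strand) had 1210.4 and 1233 in T98 LKB1 siRNA, against 1571 and 1255 in T98 control siRNA, and 2481 and 1887 in U87 LKB1 siRNA, against 2476 and 1996 in U87 control siRNA. The RCOR1 groups of T98 did not overlap either, with LKB1 siRNA lower, and those of U87 overlapped. Neither effect on RCOR1 passed, at -0.20 on the log2 scale in T98 (SE 0.22, adjusted p = 0.818) and -0.04 in U87 (SE 0.22, adjusted p = 0.999). Between the control libraries REST did not pass, with -0.13 for T98 over U87 (SE 0.26, adjusted p = 0.719), where 37.7% of all genes did. RCOR1 was lower in T98 controls than in U87 controls by a log2 value of -0.66 (SE 0.22, adjusted p = 0.0509), which passed with a lane term at -0.76 (SE 0.17, adjusted p = 0.0049), as 32.6% of all genes did in that direction and 30.7% in the other. Ordered by mean, REST was at 804 ± 281 in T98 LKB1 siRNA, 1142 ± 26.7 in T98 control siRNA, 1208 ± 54.4 in U87 LKB1 siRNA and 1256 ± 149.6 in U87 control siRNA (SD, n = 2 each). Neither pair that differs in siRNA within a line, nor the pair of controls, passed, and T98 control against U87 LKB1 siRNA was not tested.

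A list of 40 genes reported elsewhere as REST targets, written with earlier results of these data known, was followed in the same libraries. It holds none of the 9 genes. Most tested targets were higher with LKB1 siRNA: 28 of 30 in both T98 lanes (38.2% of all genes were) and 25 of 30 in both U87 lanes (35.5% of all genes were). The median log2 fold change was 0.95 in T98 and 0.84 in U87, against 0.02 and -0.00 over all genes. The other 10 targets, among them GRIA2, GRIN1, STMN2 and CHGA, stayed below a value of 10, with at most 9.56 in any library.

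No target passed in limma-trend without a lane term in either line, where 0.028% of all genes were called higher in each. At an unadjusted p below 0.05 it counted 11 targets higher in T98 and 7 in U87, and none lower. Of all 14282 genes tested, 1502 in T98 and 1268 in U87 were below that p in either direction. With a lane term 15 of the 30 targets rose in T98 and none fell (8.48% of all genes rose and 7.33% fell), and 11 rose in U87 and none fell (5.29% rose and 5.91% fell), 8 of them in both lines. For the difference between the lines no target passed in either fit, where 0% of all genes passed without the lane term and 0.476% with it (0.371% higher and 0.105% lower in T98).

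The T98 count was 2 of 30 without either lane 2 library of T98, and 0 or 1 without any 1 U87 library. The U87 count was 0 without any 1 U87 library, when only T98 libraries inform the spread.

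Of the targets that act at synaptic vesicles, SNAP25, SYP, CPLX1 and UNC13A passed with the lane term in 1 line or both. BSN (lane-term adjusted p = 0.0975 in T98 and 0.0755 in U87), SYN1 and SCAMP5 did not pass in either line. SVOP and SYT4 were not tested. SNAP25, a subunit of the complex that fuses vesicles with the membrane, had 439 and 898 in T98 LKB1 siRNA, against 85.5 and 288 in T98 control siRNA, and 2386 and 2226 in U87 LKB1 siRNA, against 778 and 577 in U87 control siRNA. In the lane-term fit it rose by 1.99 in T98 (SE 0.20, adjusted p = 0.00338) and by 1.78 in U87 (SE 0.20, adjusted p = 0.00318). SYP, the vesicle protein synaptophysin, had 416 and 362 in T98 LKB1 siRNA, against 46.0 and 110.3 in T98 control siRNA, and rose by 2.43 (SE 0.36, adjusted p = 0.00919). The silenced libraries of both genes lay above all controls of their line. CPLX1, which clamps vesicle fusion, rose in T98 by 2.17 (SE 0.60, adjusted p = 0.0486), and UNC13A, which primes vesicles, rose in U87 by 1.29 (SE 0.29, adjusted p = 0.0301). The UNC13A groups overlapped in U87, at 19.4 and 59.7 with LKB1 siRNA against 6.45 and 26.8 with control siRNA.

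Of the 8 targets that rose in both lines, SCG2, CHGB, VGF and BDNF encode secreted proteins; NPPA, a secreted peptide on the same list, did not pass (0.27 in T98, 0.03 in U87), and SCG3 and CHGA were not tested. SCG2, a granin of dense-core vesicles, had 1785 and 1725 in T98 LKB1 siRNA, against 198 and 512 in T98 control siRNA, and its rise in the lane-term fit was 2.46 (SE 0.32, adjusted p = 0.00681). In U87 it had 1900.1 and 179 with LKB1 siRNA, against 578 and 86.7 with control siRNA, so that its lanes differed more than its siRNAs and the groups overlapped. Its U87 rise of 1.38 (SE 0.32, adjusted p = 0.0345) is a rise within lanes. The granin CHGB (2.34 in T98, 1.97 in U87), the peptide precursor VGF (2.36 and 2.20) and the neurotrophin BDNF (1.34 and 1.42) also rose in both lines, as did BEX1 (1.69 and 1.35) and the kinase scaffold MAPK8IP1 (1.15 and 0.87). The BEX1 groups overlapped in U87, with 178 and 733 with LKB1 siRNA against 67.8 and 292 with control siRNA, so that rise too is within lanes. CHGB rests on few reads, 31 and 27 against 3 and 8 in T98, and 7 and 26 against 1 and 7 in U87. VGF had 431 and 74.2 in T98 LKB1 siRNA, against 34.1 and 34.2 in T98 control siRNA, so its T98 rise was larger in lane 2.

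Another 8 targets passed with a lane term in 1 line, beside CPLX1 and UNC13A above. STMN3, which destabilises microtubules, had 74.4 and 89.9 in U87 LKB1 siRNA, against 23.2 and 15.2 in U87 control siRNA, and rose by 2.06 (SE 0.22, adjusted p = 0.0029). Its T98 levels were far higher, with 14479 and 9994 in T98 LKB1 siRNA against 7719.8 and 7327 in T98 control siRNA, and the change of 0.68 did not pass (adjusted p = 0.0774). The adhesion protein L1CAM (0.91), the tubulin TUBB3 (0.89), the nicotinic receptor subunit CHRNB2 (2.14), the channel KCNN4 (1.07), MAPK8IP2 (1.64) and RUSC1 (0.99) rose in T98, and the sodium channel subunit SCN2A (0.80) rose in U87. For CHRNB2 only 24 and 20 reads in T98 LKB1 siRNA stand against 3 and 6 in T98 control siRNA. The atypical cadherin CELSR3 had a log2 fold change of -0.35 in T98 and CACNA1H, a calcium channel, one of -0.82 in U87 (adjusted p = 0.125 and 0.368).

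**Figure D3:**
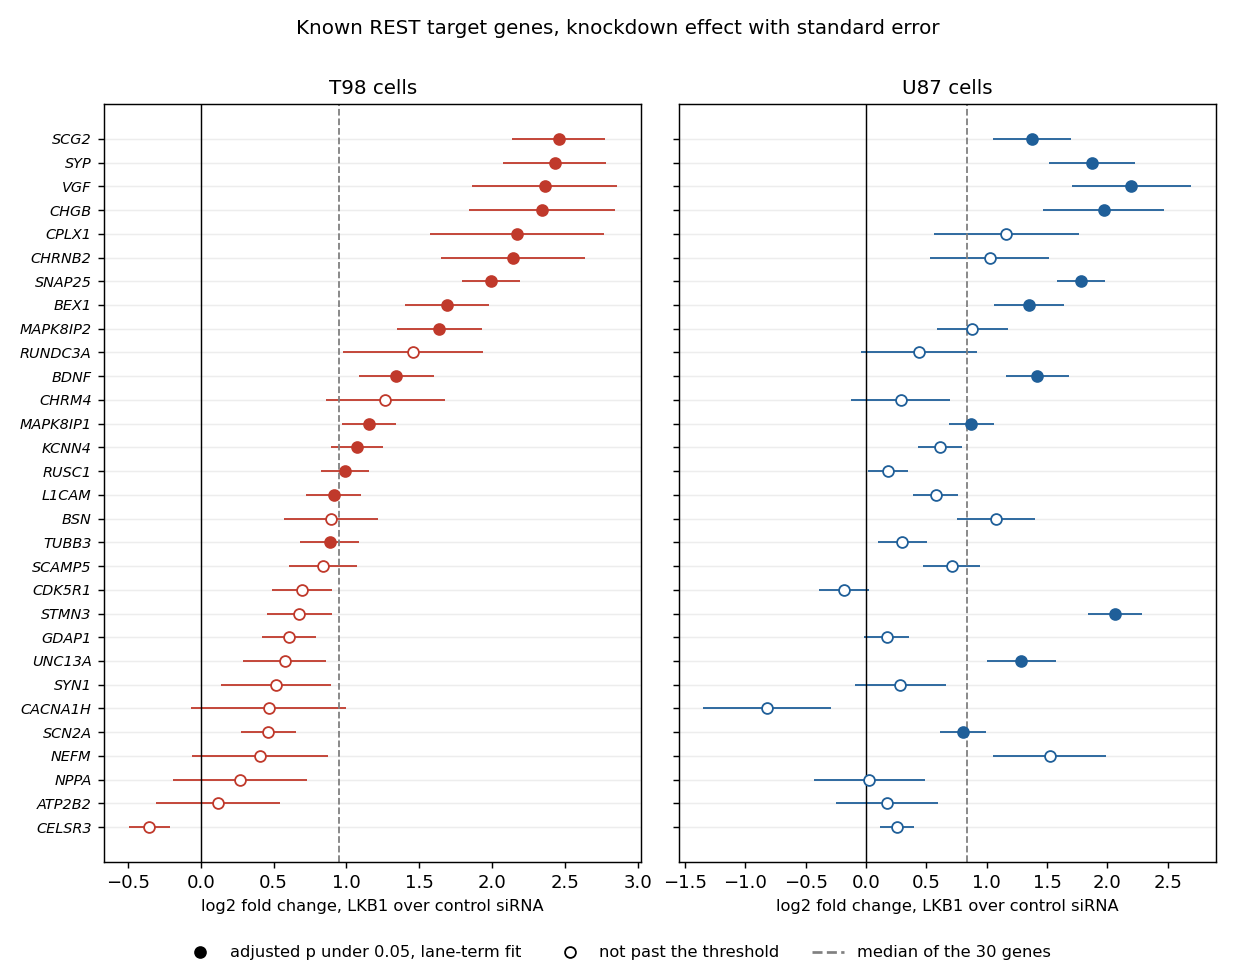
Log2 fold change with its standard error for the 30 tested REST targets, from the fit with a lane term, T98 on the left and U87 on the right, filled where the adjusted p is under 0.05. The median, drawn as a dashed line, is 0.95 in T98 and 0.84 in U87, and 8 genes are filled in both panels.

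Between the control libraries, 3 of the 30 targets were higher and 7 lower in T98 than in U87 controls by limma-trend, which called 18.3% of all genes higher and 19.5% lower. STMN3 (8.57) and L1CAM (7.08) were higher in T98 on the log2 scale, and KCNN4 (-3.03), VGF (-3.31) and SCN2A (-3.40) lower.

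The list of 20 REST cofactors, of which 19 were in the table and tested, is described by its rises. With a lane term 3 rose in T98 and 2 in U87, shares of 15.8% and 10.5% for the rises, against 8.48% and 5.29% of all genes; none passed without it. KDM1A, the demethylase of the CoREST complex, had 4845 and 4212 in T98 LKB1 siRNA, against 2484 and 2714 in T98 control siRNA, and 3612 and 2389.7 in U87 LKB1 siRNA, against 2421 and 1740.2 in U87 control siRNA. It rose by 0.80 (SE 0.13, adjusted p = 0.0118) in T98 and 0.52 (SE 0.13, adjusted p = 0.0444) in U87. HMG20B, a DNA-binding subunit of the complex, rose by 0.74 and RCOR2, a paralog of RCOR1, by 1.21 in T98. SIN3B rose by 0.53 in U87. The deacetylases HDAC1 (0.34 in T98) and HDAC2 (0.17 in T98) did not pass.

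Of 6 genes that act on REST protein turnover or splicing, 5 were tested and the same 2 rose in both lines with a lane term (8.48% and 5.29% of all genes rose); neither passed without it. BTRC, the substrate receptor of the ubiquitin ligase that marks REST for degradation, had 884 and 796 in T98 LKB1 siRNA, against 459 and 396 in T98 control siRNA, and 888 and 861 in U87 LKB1 siRNA, against 395 and 469 in U87 control siRNA. With the lane term BTRC rose by 0.97 (SE 0.15, adjusted p = 0.0101) in T98 and 1.02 (SE 0.15, adjusted p = 0.00682) in U87, and without it the adjusted p was 0.207 in T98 and 0.123 in U87. USP15, a deubiquitinase that stabilises new REST protein, had 1756 and 1255 in T98 LKB1 siRNA, against 834 and 735 in T98 control siRNA, and 2384 and 1772 in U87 LKB1 siRNA, against 1128 and 977 in U87 control siRNA. With the lane term USP15 rose by 0.92 (SE 0.14, adjusted p = 0.010) in T98 and 0.97 (SE 0.14, adjusted p = 0.00658) in U87, and without it the adjusted p was 0.281 in T98 and 0.187 in U87. Both genes separated the groups of each line, and no protein was measured. The deubiquitinase USP7 did not pass, at -0.09 and 0.05, and SRRM4, which splices REST in neurons, was at most 5.18 in any library.

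**Figure D4:**
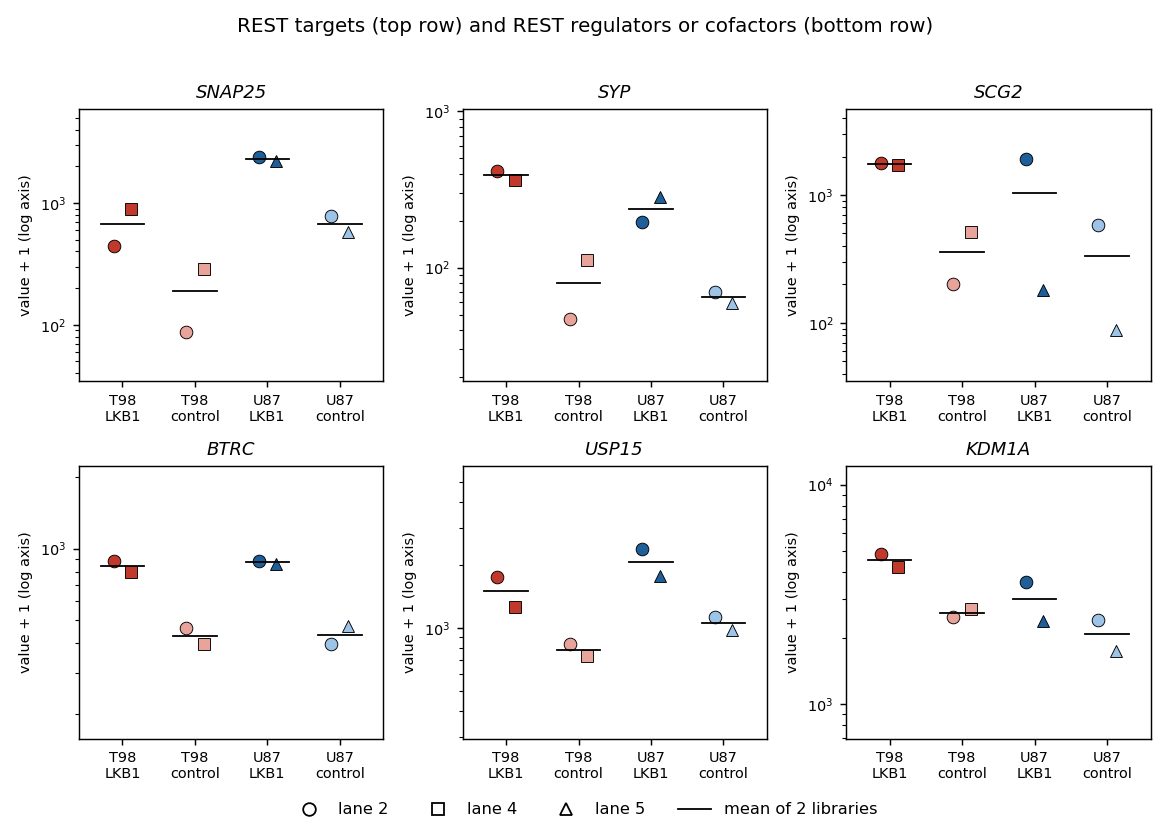
Value plus 1 on a log axis for the REST targets SNAP25, SYP and SCG2 (top) and for BTRC, USP15 and KDM1A (bottom), with the groups T98 LKB1, T98 control, U87 LKB1 and U87 control from left to right; lines are means of 2 libraries. BTRC lies at 796 to 888 in the 4 LKB1 siRNA libraries and at 395 to 469 in the 4 controls, while SCG2 in U87 differs more between lanes than between siRNAs.

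Genes that define neurons went in both directions. Of 20 neuron markers 13 were tested, 7 of the 20 being REST targets of the list above. With a lane term SNAP25, SYP and TUBB3 rose and MAP2 fell in T98, and SNAP25, SYP and ENO2 rose in U87. The rises make 23.1% of the tested markers in each line, against 8.48% of all genes in T98 and 5.29% in U87. The fall makes 7.69% in T98, against 7.33% of all genes. MAP2, a microtubule protein of dendrites, had 1392 and 1606 in T98 LKB1 siRNA, against 5980.0 and 4647 in T98 control siRNA, and fell by 1.82 (SE 0.16, adjusted p = 0.00249). The summed marker level ranged from 22244 to 31123 in T98 LKB1 siRNA against 22341 to 25472 in T98 control siRNA, and from 52826 to 60316 in U87 LKB1 siRNA against 45654 to 49092 in U87 control siRNA. UCHL1 was the largest part of this sum in every library, with 17479 and 11708 in T98 LKB1 siRNA. DCX, NEFL and STMN2 were at most 4.81 in every library.

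Of 24 neuronal transcription and RNA factors, 13 were tested. The RNA-binding protein ELAVL2 rose in T98, by 2.26 (SE 0.46, adjusted p = 0.0209, lane term), and none rose in U87. That makes 7.69% of the tested factors in T98, near the 8.48% of all genes that rose there. The proneural factors NEUROG1, NEUROG2 and NEUROD2 were at most 2.88 in any library. Markers of other cells were also summed. Summed over 7 astrocyte markers, levels were 3857 to 4042 in T98 LKB1 siRNA against 2415 to 3362 in T98 control siRNA, where SLC1A3 rose with a lane term (0.88, adjusted p = 0.0194), and 21863 to 23703 in U87 LKB1 siRNA against 16891 to 27577 in U87 control siRNA. GJA1 made up most of these sums, with 3325 and 3441 in T98 LKB1 siRNA and 22120 and 20755 in U87 LKB1 siRNA. GFAP was at most 8.6 in T98 and 50.7 in U87. The 6 microglia and blood markers summed to at most 42.1 in T98 and 832 in U87, and CSF1R alone had 813 of that U87 sum. The 3 endothelial markers summed to at most 94.6 anywhere, where CDH5 rose in T98 (1.86, adjusted p = 0.0372, lane term). That CDH5 rise rests on 2 and 11 reads in T98 LKB1 siRNA against 0 and 2 in T98 control siRNA. The 8 oligodendrocyte markers summed to 6189 to 6228 in T98 LKB1 siRNA against 5594 to 6862 in T98 control siRNA, where MBP fell by 1.31 (adjusted p = 0.0491, lane term). CNP alone had 6134 and 6112 in T98 LKB1 siRNA, and 5502 and 6791 in T98 control siRNA. MBP was at most 25.6 in T98. Of all genes, 8.48% rose and 7.33% fell in T98 with the lane term. The part of these markers in the results was not tested.

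Genes near the 9 in function were followed with the lane term. Of 10 partners of CEND1 in cell cycle exit, all tested, the kinase DYRK1B fell by 0.67 in the lane-term fit of T98 (SE 0.19, adjusted p = 0.050), and none changed in U87. That makes 10% lower in T98, against 7.33% of all genes. The cyclin CCND1 was at 0.08 and 0.06. Of 24 tested paralogs and partners of the neuronal genes, the Notch ligand DLL1 (1.42, SE 0.31, adjusted p = 0.0247) and the anion exchanger SLC4A2 (0.56, SE 0.13, adjusted p = 0.0275) rose in T98, and LMTK2, a paralog of LMTK3, rose in U87 (0.78, SE 0.19, adjusted p = 0.0429), which makes 8.33% in T98 and 4.17% in U87, against 8.48% and 5.29% of all genes. DLL1 was at 184 and 349 in T98 LKB1 siRNA, against 69.4 and 128 in T98 control siRNA, and at most 4.23 in U87.

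The nearest gene on each side of the 9 was read as well. SLC25A22, a mitochondrial glutamate carrier, lies 348 bases from CEND1 on the same strand. It had 5121 and 3414 in T98 LKB1 siRNA, against 3027 and 2339 in T98 control siRNA, and rose by 0.65 (adjusted p = 0.0172, lane term) in T98 and 0.53 (adjusted p = 0.036) in U87. PDDC1, on the other side of CEND1, had -0.14 and -0.02. No other nearest neighbour of the 9 genes passed with a lane term in either line. GALNT6 overlaps SLC4A8 by 100 bases on the opposite strand, and the library kit keeps no strand, so their reads there cannot be told apart. It had 1.26 and 6.58 in T98 LKB1 siRNA, against 0.0278 and 3.84 in T98 control siRNA, below the SLC4A8 values. In U87 it had 257 and 629 with LKB1 siRNA, against 206 and 542 with control siRNA, below SLC4A8 in lane 2 and above it in lane 5.

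Across the 8 libraries, the genes whose log2 values ran most like CEND1 were ATP8B3 (Pearson r = 0.984), PPP1R16A (r = 0.967), CNIH2 (r = 0.966), COBRA1 (r = 0.961) and PRPF38B (r = 0.959), and among the 9 genes r with CEND1 ran from 0.905 to 0.915 for FAIM2, LMTK3, PIANP, SLC4A8 and RAB39B, and was 0.447 for NEURL1B, 0.416 for RCOR1 and -0.14 for REST. These values describe 8 libraries from 2 lines, which share line, lane and siRNA. CNIH2, an auxiliary protein of glutamate receptors, had 157 and 239 in T98 LKB1 siRNA, against 22.5 and 52.3 in T98 control siRNA.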

How the data were processed

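RNA libraries came from the unstranded TruSeq V2 kit, per the labels' protocols. The submitters' processing notes list TopHat2 2.0.8b, edgeR and hg19/GRCh37 as tools and build used by the authors. The read counter used is not given in the sources used here. Each deposited signal is 1 normalised value for a transcript (18815 rows) in a library. Tested on the file, the deposited values equal the pseudo-counts that the authors' edgeR makes at a common library size, with a dispersion of 0.06803. Inverting that function gave whole reads, within 0.05 read, for 100% of values, and totals come from these reads. Of several transcripts of a symbol, the highest by mean was used. Genes with a value of 10 or more in at least 2 libraries were tested (14282, including all 9). A pseudocount of 1 was added before log2, which understates changes of low genes.

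Tests were two-sided, with limma-trend (limma 3.58.1, R 4.3.3) over all 8 libraries and 4 group means (4 residual degrees of freedom), Benjamini-Hochberg adjustment over all genes and a threshold of 0.05. The lane in the column names pairs libraries within a line: deviations correlated at 0.717 between the T98 groups and 0.809 between the U87 groups, against 0.124 to 0.177 across lines. The lane-term fit, with a lane effect per line (2 residual degrees of freedom), is therefore printed beside the fit without it; for T98 against U87 controls it sets lane 2 libraries against each other. Replicate numbers follow sample order and pair nothing. The members and gene lists were chosen with earlier results of these data known. The rule for list genes takes up to 3 higher and 3 lower per list and comparison by smallest adjusted p, and list genes named beyond that were chosen after their values were seen. The genes most like CEND1 are the 5 with the highest r among tested genes with a highest group mean of at least 50. Promoters are RefSeq's on GRCh38.p14, and no coordinates were converted. Alternatives were other pseudocounts, no filter, TMM factors, the libraries of 1 line, the lane term, each library left out, and limma-voom. The procedure was tested on simulated data. A few list genes are not reported here.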

Additional observations from a re-analysis of the deposited data

Results flagged for a closer look

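NEURL1B was singled out because its LKB1 siRNA libraries were higher than control in both T98 lanes and lower in both U87 lanes, by at least 1.5-fold in each. Its log2 fold changes differed by 2.41 between T98 and U87, a difference that entered its listing and was not tested. FN1, the extracellular matrix protein fibronectin on the list of glioma cell markers, was singled out because the lane-term fit called a difference between the lines, with a log2 fold change lower in T98 by -1.49 (SE 0.21, adjusted p = 0.0439). It had 25151 and 67974 in T98 LKB1 siRNA, against 37422 and 79986 in T98 control siRNA, and 228078 and 236981 in U87 LKB1 siRNA, against 111666 and 108141 in U87 control siRNA. Among all genes, 0.105% were called lower for that difference.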

How the results depend on the processing

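All counts below are of genes past the threshold, higher then lower. Without a lane term there were 4 and 0 in T98, 4 and 4 in U87, 0 and 0 for the difference (1502, 1268 and 367 genes at an unadjusted p below 0.05 in limma-trend) and 2607 and 2779 for T98 against U87 controls. The replicate block by lane gave 1211 and 1047 in T98, 755 and 844 in U87, 53 and 15 for the difference and 4387 and 4650 for the controls, with 15 REST targets higher in T98 and 11 in U87. With the libraries of 1 line alone there were 0 higher in T98, and 0 and 0 in U87. In limma-voom on the recovered reads, added after seeing the data, there were 2 higher in T98 and 0 and 0 in U87 without a lane term. With it there were 1259 and 1122 in T98, 764 and 1155 in U87, 80 and 16 for the difference, 4336 and 4733 for the controls, and 18 and 11 REST targets higher.

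Leaving out 1 library, with or without the lane term (the lane-term ones added after seeing the data), gave 0 to 1980 higher and 0 to 1912 lower in T98, 0 to 1338 and 0 to 1480 in U87, 0 to 458 and 0 to 536 for the difference, 1469 to 4677 and 1689 to 4952 for the controls, and 0 to 17 and 0 to 15 REST targets higher in T98 and U87. With the lane term, leaving out 1 library rests the spread on the other line. Other pseudocounts, no filter on low values and TMM factors kept these counts within 1.5 times.

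Of 939 values of the 9 genes and STK11 under alternatives, 762 kept direction and side of the threshold or stayed within the spread, 106 moved, 46 newly passed, 14 no longer passed and 11 tested values changed sign. These sign changes came with 1 library left out, for REST in U87 (0.0702 and 0.0242, range -0.1733 to 0.0702), RCOR1 in U87 (0.1161, 0.1584 and 0.0032, range -0.2367 to 0.1584) and RCOR1 for the difference (0, 0.0356 and 0.0131, range -0.3595 to 0.0356). Of the untested values, NEURL1B in T98 (-0.0013) and LMTK3 for the difference (-0.0773) also changed sign. Both came from the fit without a lane term, with the lane 4 library of T98 LKB1 siRNA left out. Count models of edgeR and DESeq2 were not run.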
